A study of Mus musculus with 23 samples.

Results

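Both subsets of conventional dendritic cell were sorted from the spleens of mice with conditional Bcl6 deletion, and the question was which of the differences that mark them as subsets were still measured there. The comparison rests on the 9 arrays titled cKO cDC1 (4 arrays) and cKO cDC2 (5 arrays), out of 23 in the series. The study profiled type 1 conventional dendritic cells (cDC1), type 2 conventional dendritic cells (cDC2) and plasmacytoid dendritic cells (pDC) of wild-type (WT) and of Bcl6 conditional knockout (Bcl6cKO, here cKO) mice. The WT reference was 3 arrays of cDC1 and 3 of cDC2, and these share no array with the cKO pair. The pDC arrays (3 WT, 5 cKO) entered no contrast. They did enter the estimate of the spread between arrays, the filter on dim probe sets, the choice of probe set and the array sets. Not given in the sources used here were the Cre driver, the age of the mice, the sort gate and any pooling of animals. No label ties the arrays of a group to different animals, so every p-value measures the spread between these samples only, which may be technical.

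Conventional dendritic cells capture antigen and present it to T cells. The cDC1 depend on the transcription factors IRF8 and BATF3, take up dead cells and cross-present their antigens to CD8 T cells, while the cDC2 depend more on IRF4 and other factors and mainly prime CD4 T cells. BCL6, the product of Bcl6, is a zinc finger repressor studied most in B cells of germinal centres and in the T cells that help them.

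Each array gave 1 intensity per probe set, used here as log2, so a difference of 1 is a 2-fold ratio. The medians of the arrays lay between 29.3 and 41.2 intensity units and fell into a lower set of 14 arrays (29.3 to 34.3) and an upper set of 9 (38.9 to 41.2). Both sets held arrays of each group, with cKO cDC1 arrays 1 and 2 and cKO cDC2 arrays 1, 2 and 3 in the lower set. Group means of log2 array medians were 5.13 for cKO cDC1 and 5.11 for cKO cDC2, and a level below these values is dim, so that a ratio against it has an uncertain size. Xist, an RNA that females make from their inactive X, read 10.90 and 11.28 on WT cDC1 array 1 and WT cDC2 array 1 and 3.90 to 4.59 on the other 13 conventional arrays, all 9 cKO arrays included. The part of sex in any WT difference was not tested beyond leaving those arrays out.

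Bcl6 itself was read by 1 probe set. It gave 8.74, 8.06, 8.46 and 8.29 on the cKO cDC1 arrays and 8.40, 8.61, 7.51, 7.51 and 7.97 on the cKO cDC2 arrays, with WT means of 7.42 ± 0.61 (SD, n = 3) in cDC1 and 7.31 ± 0.46 (SD, n = 3) in cDC2. The cKO groups overlapped, with a difference of 0.39 ± 0.30 (limma SE; limma adjusted p = 0.658). Neither cKO group read below its WT group. The medians were higher in cKO, at 8.38 against 7.12 in cDC1 and 7.97 against 7.06 in cDC2, with arrays of the genotypes overlapping in both subsets. The position of the probe set relative to the deleted part was not given, so this signal checks nothing about the deletion.

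On the cKO arrays the subsets were far apart. Among 12157 genes tested, 1088 differed between cKO cDC1 and cKO cDC2 at a limma adjusted p below 0.05 (8.95%), 486 of them higher in cDC1 (4% of genes tested) and 602 higher in cDC2 (4.95%). A difference of at least 2-fold was found for 741 of these genes and of at least 8-fold for 62, with 29 of the 62 higher in cDC1 and 33 higher in cDC2. The arrays of the cKO groups did not overlap for 952 of the 1088 called genes (11.2% of all genes tested did not overlap). All 1088 lay on the same side in the lower and in the upper array set, with median sizes of 1.28 and 1.25 log2. Both sets are parts of the arrays that gave the calls, so this agreement is largely built in and is no replication. With the array set as a term 1751 genes were called. The lower of the group means was dim for 264 of the called genes (24.3%). Which side held more of the called genes depended on the fit. The count was 486 against 456 without cKO cDC1 replicate 2, and more genes were higher in cDC1 also with array weights.

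The defining markers of the subsets lay on the sides that the labels name. The sort gate is not given, so listed surface markers may have been part of it, and this checks no label. Of the 28 tested genes of a list of cDC1 identity genes, 24 were higher in cKO cDC1 and 0 in cKO cDC2, with a median difference of 2.68 log2 against 0.04 over all genes tested. In WT the same list also gave 24 higher in cDC1 and a median of 3.09, and 23 genes were called in both. None of the 28 had a called difference of differences, the cKO difference minus the WT difference. At an unadjusted p below 0.05, 26 differed between the cKO subsets, against 2082 of all 12157 genes tested.

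Xcr1, the receptor for the chemokine XCL1 and a defining cDC1 marker, read 9.97, 9.39, 9.62 and 9.87 on the cKO cDC1 arrays and 4.63, 4.29, 4.40, 4.61 and 4.57 on the cKO cDC2 arrays. The groups were far from overlapping. The difference was 5.21 ± 0.21 (SE; 37.0-fold; limma adjusted p = 3.34e-14), against 5.19 ± 0.25 in WT, and the difference of differences was 0.02 with a 95% interval of -0.65 to 0.69. Because the cDC2 level was dim, the fold is uncertain in size. Clec9a, a receptor for exposed actin on dead cells, read 10.94, 10.74, 11.19 and 11.34 in cKO cDC1 against 7.24, 7.60, 6.16, 7.06 and 6.90 in cKO cDC2. Its difference was 4.06 ± 0.26 (SE; 16.7-fold; limma adjusted p = 9.81e-11), against 4.12 ± 0.31 in WT. Tlr3, the endosomal sensor of double-stranded RNA, read 11.07, 10.51, 11.07 and 10.91 against 6.50, 7.22, 6.01, 6.78 and 7.06. The difference was 4.18 ± 0.25 (SE; 18.1-fold), against 4.32 ± 0.30 in WT.

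Other identity genes of cDC1 stood on the same side in both genotypes. Cadm1, an adhesion molecule, differed by 3.92 ± 0.39 (SE) in cKO and 4.23 ± 0.47 in WT. Gcsam, a signalling adaptor first known from germinal centre B cells, differed by 4.02 ± 0.31 in cKO and 4.18 ± 0.38 in WT. Snx22, of the sorting nexin family, gave 3.84 in cKO and 3.85 in WT. The coreceptor gene Cd8a, by which splenic cDC1 were first told apart, differed by 2.93 ± 0.22 in cKO and 4.07 ± 0.27 in WT, and its difference of differences of -1.14 had a limma adjusted p = 0.424. The scavenger receptor Cd36 differed by 4.12 ± 0.25 in cKO and 5.03 ± 0.30 in WT, and its level in cDC2 was higher in cKO than in WT by 1.56 (limma adjusted p = 0.00141). The integrin gene Itgae, which encodes CD103, differed by 2.77 ± 0.35. Its 4 cKO cDC1 arrays had an SD of 1.04.

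The 4 identity genes of cDC1 not called in cKO were Batf3 (0.78 ± 0.38), Id2 (1.30 ± 0.50), Cd24a (0.35) and Clnk (0.70 ± 0.28). Batf3, Id2 and Cd24a were not called in WT either. Clnk, an adaptor of the SLP-76 family, differed by 2.07 ± 0.34 in WT, and its difference of differences of -1.38 did not pass (limma adjusted p = 0.483). Fcrl5 did not pass the filter on dim probe sets, and Tlr11 had no probe set of its own among those analysed.

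The 15 largest differences toward cKO cDC1 among called genes with arrays that did not overlap ran from 3.46 to 6.06 log2. They were Ccl24, P3h2, Xcr1, Gpr141b, Clec4b2, Tlr3, Cd36, Clec9a, Gcsam, Cadm1, Gpr33, Snx22, Mab21l3, Pdia5 and Ifi205. P3h2, a prolyl hydroxylase that modifies collagen, differed by 5.45 ± 0.26 in cKO and 6.38 ± 0.32 in WT. Gpr141b, an orphan receptor, differed by 5.20 ± 0.25 and 6.40 ± 0.30. Clec4b2, a C-type lectin receptor, differed by 5.09 ± 0.27 and 3.56 ± 0.32. For these 3 genes the difference of differences was not called. Of the 15, Ccl24 alone had a called difference of differences, and it is described with the genes that changed.

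**Figure D1:**
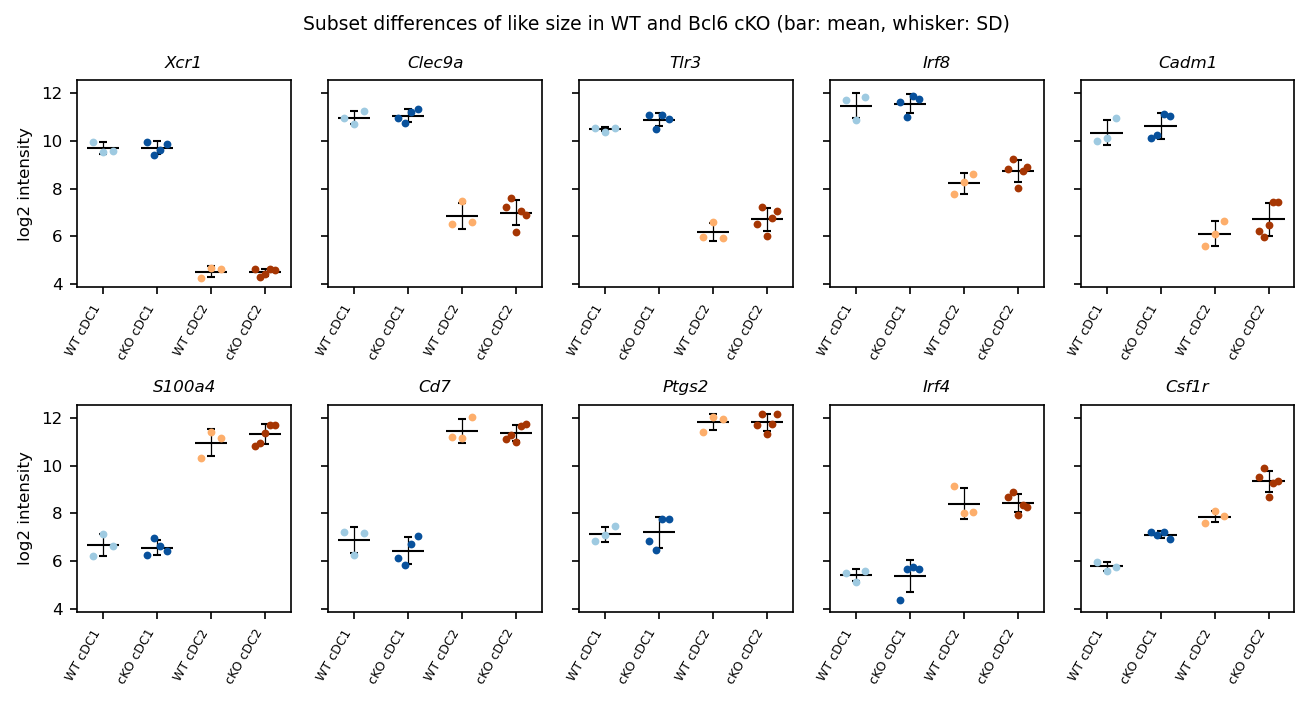
Log2 intensity (vertical axis) of 10 genes on each conventional dendritic cell array (points), by group (horizontal axis; WT cDC1 3 arrays, cKO cDC1 4, WT cDC2 3, cKO cDC2 5), with the mean (bar) and SD (whisker). The top row holds cDC1 genes and the bottom row cDC2 genes; Xcr1 lies at 9.39 to 9.97 on the cKO cDC1 arrays and at 4.29 to 4.63 on the cKO cDC2 arrays.

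The AP-1-IRF composite element is a known site of joint binding by BATF and IRF family factors, and it was searched in the 250 bases before the RefSeq gene start (GRCm38.p6) as TTTC, 4 bases of any kind and TGA in a row, on both strands. The 250 bases of Xcr1 and Clec9a are shown because these are defining cDC1 genes that hold a match, and those of Ccr6 and Blnk as the 1 cDC2 identity gene and the 1 gene with a called difference of differences that held one. The capitals mark the match. They are Xcr1 on the minus strand (chr9:123862030-123862279), Clec9a on the plus strand (chr6:129408612-129408861), Ccr6 on the plus strand (chr17:8235793-8236042) and Blnk on the minus strand (chr19:40994222-40994471).
Xcr1: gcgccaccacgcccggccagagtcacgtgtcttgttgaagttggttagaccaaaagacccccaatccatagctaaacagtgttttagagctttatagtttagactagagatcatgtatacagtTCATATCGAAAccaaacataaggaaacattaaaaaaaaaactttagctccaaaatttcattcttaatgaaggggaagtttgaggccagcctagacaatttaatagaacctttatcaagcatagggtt
Clec9a: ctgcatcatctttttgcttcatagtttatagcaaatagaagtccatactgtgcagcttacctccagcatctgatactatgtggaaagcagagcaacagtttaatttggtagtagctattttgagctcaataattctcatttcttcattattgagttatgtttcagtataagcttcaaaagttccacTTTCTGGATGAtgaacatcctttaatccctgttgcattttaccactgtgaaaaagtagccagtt
Ccr6: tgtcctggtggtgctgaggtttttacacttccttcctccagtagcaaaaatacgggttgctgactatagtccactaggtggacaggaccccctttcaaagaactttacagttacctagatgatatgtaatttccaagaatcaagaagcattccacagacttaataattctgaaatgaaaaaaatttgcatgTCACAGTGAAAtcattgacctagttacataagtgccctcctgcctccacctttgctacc
Blnk: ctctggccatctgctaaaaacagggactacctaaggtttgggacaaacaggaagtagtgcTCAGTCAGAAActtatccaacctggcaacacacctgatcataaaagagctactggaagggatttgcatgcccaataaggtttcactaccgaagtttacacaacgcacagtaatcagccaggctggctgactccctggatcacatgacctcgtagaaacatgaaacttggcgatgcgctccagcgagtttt
The match began 127 bases before the start in Xcr1, 64 in Clec9a, 59 in Ccr6 and 190 in Blnk. Ccr6 has another start in the table (window chr17:8242276-8242525), whose match began 215 bases before it. It occurred in 3 of the 24 cDC1 identity genes with such a sequence (Xcr1, Clec9a and Gcsam), in 1 of 22 cDC2 identity genes, in 20 of 393 genes higher in cKO cDC1 (5.09%), in 22 of 466 genes higher in cKO cDC2 (4.72%) and in 1 of 23 genes with a called difference of differences (4.35%). Among all genes tested, 307 of 9702 held it (3.16%), and among all 32851 sequences of this length in the table, 3.82% did. A match is a description of letters and not of binding.

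On the cDC2 side, of the 30 genes of a list of cDC2 identity genes, all tested, 23 were higher in cKO cDC2 and 1 in cKO cDC1, with a median difference of -2.12 log2 in cKO and -2.12 in WT. In WT the counts were also 23 and 1, and 23 genes were called the same way in both. The 1 gene on the other side was Clec12a, an inhibitory lectin receptor, which was 3.29 ± 0.20 higher in cKO cDC1 and 2.13 ± 0.25 higher in WT cDC1. Called differences of differences were found for 4 of the 30 (Cd209a, Clec4a4, Tlr7 and Dtx1).

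S100a4, a calcium-binding protein, read 6.26, 6.95, 6.63 and 6.40 on the cKO cDC1 arrays and 10.83, 10.93, 11.38, 11.68 and 11.72 on the cKO cDC2 arrays. The groups lay far apart, with a difference of -4.75 ± 0.34 (SE; 26.9-fold; limma adjusted p = 9.65e-10), against -4.29 ± 0.42 in WT. Cd7, a surface protein of the immunoglobulin superfamily, read 6.12, 5.83, 6.71 and 7.07 against 11.13, 11.30, 10.97, 11.66 and 11.76. Its difference was -4.93 ± 0.31 (SE; 30.5-fold), against -4.58 ± 0.38 in WT. Ptgs2, the inducible cyclooxygenase of prostaglandin synthesis, differed by -4.60 ± 0.30 in cKO and -4.68 ± 0.36 in WT. The difference of differences of these 3 genes was not called. For Ptgs2 it was 0.08 with a 95% interval of -0.89 to 1.06.

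Some cDC2 identity genes were at higher levels in both cKO subsets, with the subset difference on the same side as in WT. Csf1r, the receptor for CSF1 and IL-34, read 7.20, 7.08, 7.23 and 6.92 in cKO cDC1 and 9.53, 9.90, 8.67, 9.25 and 9.36 in cKO cDC2. The WT means were 5.78 ± 0.18 (SD, n = 3) and 7.86 ± 0.24 (SD, n = 3). Csf1r was thus higher in cKO than in WT by 1.33 in cDC1 (limma adjusted p = 0.00689) and by 1.48 in cDC2 (limma adjusted p = 0.00117), while the subset difference was -2.23 ± 0.23 in cKO and -2.09 ± 0.28 in WT. Itgam, the CD11b integrin chain, was higher in cKO by 2.14 in cDC1 and by 1.25 in cDC2 (limma adjusted p = 5.35e-05 and 0.0128). Its subset difference was -2.06 ± 0.25 in cKO and -2.95 ± 0.30 in WT, with no called difference of differences. Over all genes tested, 101 were called between cKO and WT in cDC1 (0.831%) and 190 in cDC2 (1.56%).

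Sirpa, the receptor for CD47 by which cDC2 are often gated, read 8.49, 8.35, 8.67 and 8.63 in cKO cDC1 and between 10.17 and 11.71 on the 5 cKO cDC2 arrays. The WT cDC1 arrays read 6.57, 6.19 and 6.03, below every cKO cDC1 array. The subset difference was -2.48 ± 0.36 in cKO and -4.42 ± 0.43 in WT, and the difference of differences of 1.95 ± 0.56 did not pass (limma adjusted p = 0.295; 95% interval 0.79 to 3.11, not adjusted for the number of genes). Sirpa in cDC1 was higher in cKO than in WT by 2.27 (limma adjusted p = 0.00255). Any use of Sirpa in the sort gate is not stated in the labels.

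The 15 largest differences toward cKO cDC2 by the same rule ran from 3.64 to 6.49 log2. They included Car1, Car2, Rhag and Cldn13, genes of red cells and their precursors, which are described with the other lineages. Lectin and adhesion receptors were Clec10a, Clec4n and Adgre4, and the others were Cd7, S100a4, Ptgs2, Fn1, Gfra2, Gstm5, Ces2g and Rgl1. Clec10a, a galactose-binding lectin, read 3.95, 4.66, 3.43 and 3.53 in cKO cDC1 and 8.70, 8.38, 7.03, 8.36 and 8.49 in cKO cDC2. Its difference was -4.30 ± 0.40 in cKO against -2.24 ± 0.49 in WT, and the difference of differences of -2.06 did not pass (limma adjusted p = 0.424). The level in cDC1 was dim in both genotypes. Clec4n, which encodes the fungal receptor Dectin-2, differed by -4.02 ± 0.33 in cKO and -2.01 ± 0.40 in WT, also with no called difference of differences (limma adjusted p = 0.166). Adgre4, an adhesion G protein-coupled receptor of myeloid cells, differed by -3.85 ± 0.25 in cKO and -3.09 ± 0.31 in WT.

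Transcription factors of the subsets stood on the same sides as in WT. Of 37 tested, 3 were higher in cKO cDC1 (Irf8, Mycl and Zfp366) and 7 in cKO cDC2 (Irf4, Zeb2, Tcf4, Spib, Prdm1, Tbx21 and Ets1), with a median over the list of -0.24. All 8 factors called in WT were on those sides or were not called in cKO: 7 were called in both the same way, and Runx3 (-0.47 in cKO, -0.89 in WT) was called in WT alone. No factor of the list had a called difference of differences. Irf8, required for cDC1, read 11.61, 10.98, 11.86 and 11.77 in cKO cDC1 and 8.82, 9.25, 8.01, 8.73 and 8.89 in cKO cDC2. The difference was 2.82 ± 0.34 (SE; 7.05-fold; limma adjusted p = 3e-06), against 3.24 ± 0.42 in WT. Irf4 read 4.36, 5.66, 5.77 and 5.68 in cKO cDC1 and 8.70, 8.91, 7.93, 8.35 and 8.26 in cKO cDC2. Both factors thus parted the cKO subsets with no overlap, and the Irf4 difference was -3.07 ± 0.36 (SE; 8.37-fold; limma adjusted p = 1.85e-06), against -3.01 ± 0.44 in WT.

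Zeb2, a repressor that opposes the cDC1 fate during development, read 6.29, 6.31, 6.77 and 6.56 in cKO cDC1 and 8.70, 9.13, 8.53, 8.87 and 8.99 in cKO cDC2. The WT cDC1 arrays read 4.66, 4.51 and 4.53. The subset difference was -2.36 ± 0.19 in cKO and -3.53 ± 0.23 in WT, with a difference of differences of 1.17 ± 0.30 that did not pass (limma adjusted p = 0.164). In cDC1, Zeb2 was higher in cKO than in WT by 1.92 (limma adjusted p = 6.33e-06). Tcf4, the E2-2 factor of pDC, differed by -2.22 ± 0.24 in cKO and -1.19 ± 0.29 in WT. Spib, an ETS family factor, differed by -2.07 ± 0.37 and -2.04 ± 0.45. Tbx21, which encodes T-bet, differed by -0.68 ± 0.20 and -1.55 ± 0.24. The values for Tcf4 and Tbx21 carried no called difference of differences. Mycl, Zfp366 and Ets1 were called in cKO and not in WT, at differences of 1.48, 1.11 and -0.90 in cKO and 1.63, 1.04 and -0.45 in WT.

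Of 16 genes shared by the conventional subsets, 1 was called in cKO (Cd86, a costimulatory ligand, 0.90 ± 0.22 higher in cDC1; limma adjusted p = 0.00952, lost after quantile normalization), and the median difference was -0.11. At an unadjusted p below 0.05 there were 5 (2082 of 12157 over all genes tested). The arrays of 2 did not overlap (11.2% over all genes tested), Cd86 and Ccr7, a chemokine receptor of migrating cells (10.07 to 10.57 in cKO cDC1, 10.69 to 11.14 in cKO cDC2). Zbtb46, a factor of conventional dendritic cells, differed by 0.08 with a 95% interval of -0.34 to 0.49. Flt3, the receptor for the growth factor on which dendritic cells depend, differed by 0.23 with an interval of -0.24 to 0.69.

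The WT arrays gave the same contrast without the deletion. There, 736 genes were called (6.05%), 367 higher in cDC1 (3.02%) and 369 higher in cDC2 (3.04%), and 1223 with the replicate number blocked, since same-numbered WT arrays deviated together. Of the 736, 553 were called the same way in cKO, which is 75.1% of the WT calls and 50.8% of the cKO calls, 287 of them higher in cDC1 and 266 higher in cDC2. Another 181 were called in WT alone and 533 in cKO alone, while Myof and Slc12a2 were called in opposite directions. A call in 1 genotype alone is no test of a difference between genotypes, and the WT contrast had fewer arrays and a larger median SE (0.312 against 0.256). Of the 181, 160 had the same sign in cKO, and 82 of those reached an unadjusted p below 0.05. Of the 533, 507 had the same sign in WT, and 268 of those reached an unadjusted p below 0.05.

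The sign of the difference was the same in both genotypes for 713 of the 736 WT calls (96.9%) and 1060 of the 1088 cKO calls (97.4%), against 74.4% over all genes tested. Pearson's r of the differences was 0.816 across all 12157 genes and 0.922 across the WT calls. Genes are not independent replicates, and all arrays were normalized together, so these are descriptions. The median size of the WT calls was 1.60 in WT and 1.23 in cKO, and that of the cKO calls was 1.25 in cKO and 1.09 in WT. In each case the set was chosen in the genotype with the larger value, which by itself lowers the other. Of 70 WT calls of at least 8-fold, 69 were called the same way in cKO. The exception was Cybb. Of the same 70, 7 had a called difference of differences (Cd209a, Cd300ld, Clec4a4, Cybb, Il12b, Tgm2 and Tlr7), against 3.26% of all WT calls. The 70 were chosen for a large WT difference, which the difference of differences subtracts, so the higher share is partly built in.

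**Figure D2:**
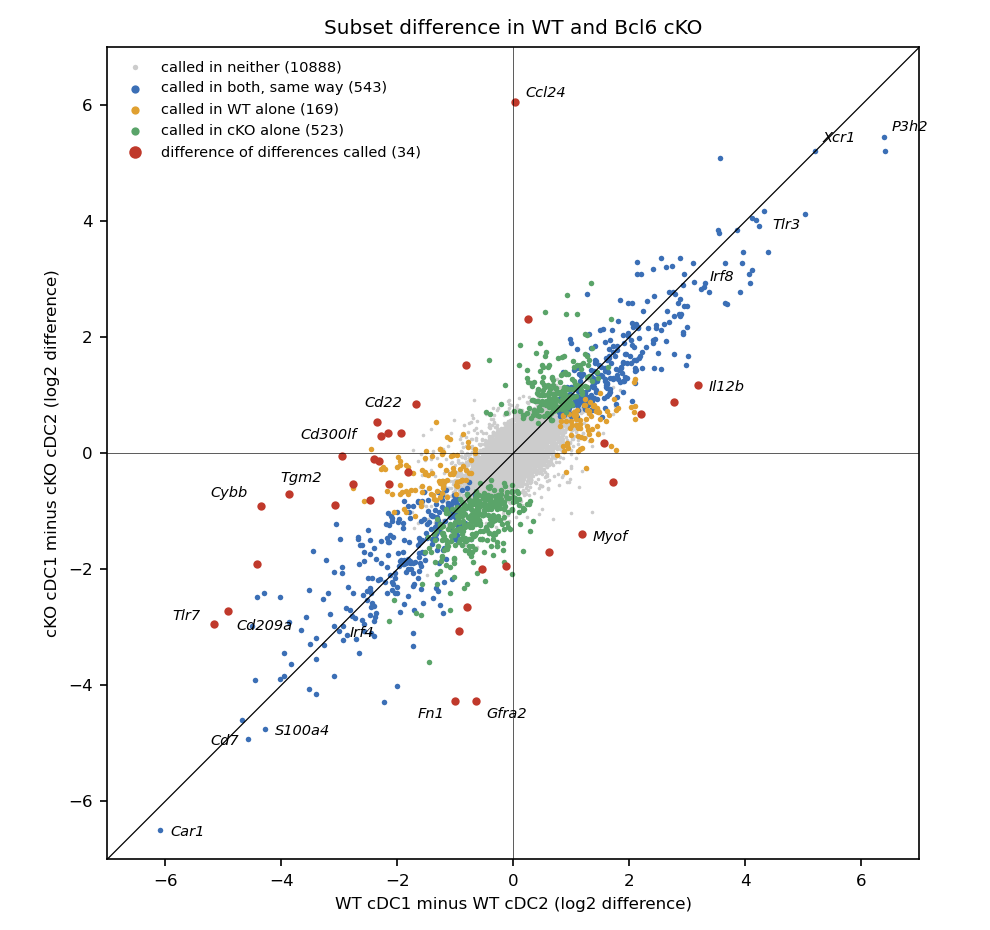
Log2 difference between cDC1 and cDC2 in WT (horizontal axis) against the same difference in cKO (vertical axis) for each of 12157 genes (points), coloured by where limma called the gene at an adjusted p below 0.05, with the line of equality. A gene with a called difference of differences is counted under that class only. Most called genes lie along the line, and the 34 genes with a called difference of differences lie away from it, with Ccl24 at 0.02 in WT and 6.06 in cKO.

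The difference of differences was called for 34 genes (0.28% of genes tested; 397 at an unadjusted p below 0.05), and its median SE of 0.404 limits what could be called. All 34 had the same sign in both array sets, which is largely built in because the calls came from the same arrays. With the array set as a term 95 were called. In 18 genes the WT subset difference lay toward cDC2 and was smaller in size in cKO, on either side. In 5 the WT difference lay toward cDC1 and was smaller in size in cKO, and in 11 the cKO difference was the larger in size. Genes that turned sides with a larger size in cKO, such as Myof, Dapk1 and 1700006J14Rik, are among the 11. The number fell to 22 without WT cDC1 replicate 2 and also without WT cDC2 replicate 2, and to 17 without the 3 WT arrays of replicate 1, in which Xist was high on the conventional arrays.

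Among the 18 genes whose difference toward cDC2 was smaller in size in cKO were receptors and enzymes of myeloid cells. For 11 of the 18 the cDC1 level was higher in cKO than in WT, for 9 the cDC2 level was lower and for 2 it was higher, by limma calls that use the same arrays as the difference of differences. Cybb, which encodes the catalytic chain of the NADPH oxidase of phagocytes, read 9.77, 9.24, 9.45 and 9.13 in cKO cDC1 and 10.53, 10.91, 9.94, 10.02 and 10.14 in cKO cDC2. The WT cDC1 arrays read 6.17, 4.42 and 4.99 and the WT cDC2 arrays 9.66, 9.43 and 9.56. The gap thus closed from the cDC1 side, from -4.36 ± 0.37 in WT to -0.91 ± 0.31 in cKO, a difference of differences of 3.45 ± 0.48 (limma adjusted p = 0.000482). The remaining cKO difference was not called (limma adjusted p = 0.0684), although the cKO arrays did not overlap, and it was called in several other fits. In cDC1, Cybb was higher in cKO than in WT by 4.20 (limma adjusted p = 2.57e-08).

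Tgm2, a protein-crosslinking transglutaminase, was higher in cKO than in WT in cDC1, by 1.57, and lower in cDC2, with a difference of -1.59 (limma adjusted p = 0.00028 and 0.000123). It read 7.80, 7.30, 7.88 and 7.51 in cKO cDC1 and 8.20, 8.73, 7.97, 8.27 and 8.47 in cKO cDC2, against 6.14, 5.81 and 6.21 in WT cDC1 and 10.19, 9.74 and 9.82 in WT cDC2. The difference was -0.71 ± 0.20 in cKO and -3.87 ± 0.25 in WT, and the difference of differences was 3.16 ± 0.32 (limma adjusted p = 5.84e-06). Cd300lf, an inhibitory receptor for lipids, read 9.08, 8.36, 8.80 and 8.43 in cKO cDC1 and 8.84, 9.17, 8.60, 8.54 and 8.42 in cKO cDC2. These groups overlapped, with a difference of -0.05 (95% interval -0.59 to 0.49) against -2.96 ± 0.32 in WT. Cd22, a Siglec that restrains B cell signalling, read 8.24 to 8.65 in cKO cDC1 and 7.60 to 8.68 in cKO cDC2. In WT the subset difference was -2.35 (WT means 6.23 and 8.57), and the difference of differences was 2.89 ± 0.37 (limma adjusted p = 0.000184).

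Other genes closed from the cDC1 side as well. Cd33, a Siglec, read 9.41, 9.04, 9.20 and 8.96 in cKO cDC1 and 9.79, 10.17, 9.21, 9.69 and 9.64 in cKO cDC2, so the groups overlapped slightly, against WT means of 4.47 ± 0.38 and 7.24 ± 0.34 (SD, n = 3 each). Cd33 was higher in cKO than in WT in both subsets, by 4.68 in cDC1 and 2.46 in cDC2. Pltp, a phospholipid transfer protein, read 9.03 to 9.52 in cKO cDC1 and 8.41 to 9.40 in cKO cDC2, and B4galt6, which makes lactosylceramide, read 8.80 to 9.14 and 8.15 to 9.01. The differences of differences were 2.59 ± 0.55 for Pltp (limma adjusted p = 0.0375) and 2.52 ± 0.33 for B4galt6 (limma adjusted p = 0.000184). The Pltp call was lost with a pseudocount of 16, without the filter on dim probe sets and on leaving out most single arrays.

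Clec4a4, Tlr7 and Dtx1 closed from the cDC2 side. Clec4a4, the lectin DCIR2 of ESAM-high cDC2, read 3.85, 4.57, 4.77, 5.37 and 5.61 in cKO cDC2 against 7.27, 7.35 and 8.04 in WT cDC2, while both cDC1 groups were dim (2.75 to 3.41). Its cKO difference was still called, at -1.91 ± 0.25 against -4.42 ± 0.31 in WT (difference of differences 2.52 ± 0.40; limma adjusted p = 0.00268). The cKO cDC2 level of Clec4a4 was dim as well (median 4.77), so the size of its cKO difference is uncertain. Tlr7, the endosomal sensor of single-stranded RNA, read 5.58, 6.73, 7.24, 6.14 and 6.72 in cKO cDC2 and 8.51, 8.82 and 8.45 in WT cDC2. No cKO cDC2 array of either gene reached the WT range. The Tlr7 difference was -2.95 ± 0.30 in cKO and -5.17 ± 0.36 in WT, with dim levels in cDC1. Dtx1, a Notch target that encodes a ubiquitin ligase, differed by -0.54 ± 0.16 in cKO and -2.15 ± 0.19 in WT, with a difference of differences of 1.61 ± 0.25 (limma adjusted p = 0.0016). Cd209a, the lectin DC-SIGN, stayed on the cDC2 side at -2.72 ± 0.23 against -4.92 ± 0.28 in WT. Its cDC1 level was 3.20 higher in cKO than in WT (8.78 ± 0.11 in cKO; SD, n = 4).

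Slc12a2, a sodium, potassium and chloride cotransporter, turned sides. It read 5.62, 6.57, 6.62 and 5.92 in cKO cDC1 and 5.14, 5.47, 4.69, 5.78 and 5.61 in cKO cDC2, with overlap, against WT means of 5.88 and 7.56. Its cKO difference of 0.84 ± 0.27 was called narrowly (limma adjusted p = 0.0495) and lost that call in several other fits. Myof, a membrane repair protein, turned the other way, at 6.33, 5.74, 6.14 and 6.12 in cKO cDC1 and 7.44, 7.85, 6.97, 7.49 and 7.66 in cKO cDC2. The Myof difference was -1.40 ± 0.20 in cKO and 1.19 ± 0.25 in WT (difference of differences -2.59 ± 0.32; limma adjusted p = 0.000139). Myof is not among the 5 genes whose WT difference toward cDC1 was smaller in size in cKO, because its cKO difference was the larger. In each of those 5 the cDC2 level was higher in cKO than in WT. Among these 5 is Il12b, the shared subunit of IL-12 and IL-23, which is named outside the rule for named genes, after its values were seen. It read 10.26, 9.72, 10.21 and 9.59 in cKO cDC1 and 8.95, 9.24, 8.51, 8.61 and 8.50 in cKO cDC2, against 7.34, 6.84 and 6.14 in WT cDC2. Its difference was 1.18 ± 0.27 in cKO and 3.19 ± 0.32 in WT.

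The 11 differences that were larger in cKO included 3 toward cDC1, each with a higher cDC1 level in cKO than in WT, and 8 toward cDC2, each with a higher cDC2 level. Ccl24, the chemokine eotaxin-2 that attracts eosinophils through CCR3, gave the largest difference toward cDC1 of all genes tested. It read 10.89, 11.06, 11.52 and 11.56 on the cKO cDC1 arrays and 5.15, 5.11, 5.46, 5.29 and 4.97 on the cKO cDC2 arrays. In WT it read 4.53, 4.83 and 5.07 in cDC1 and 4.53, 4.88 and 4.95 in cDC2, so the cKO cDC1 arrays stood alone, and every other conventional array read between 4.53 and 5.46, near the array medians. The cKO difference was 6.06 ± 0.21 (SE; 66.8-fold; limma adjusted p = 6.49e-15), the WT difference 0.02 ± 0.26, and the difference of differences 6.04 ± 0.34 (limma adjusted p = 1.19e-10). The other 2 toward cDC1 were Gbp2b, an interferon-induced GTPase (2.31 ± 0.23 in cKO, 0.25 ± 0.28 in WT), and 1700006J14Rik (1.51 ± 0.25 in cKO, -0.81 ± 0.30 in WT). Without the 3 WT arrays of replicate 1 neither difference of differences was called (limma adjusted p = 0.067 and 0.119).

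Gfra2, a coreceptor for the growth factor neurturin, was its cDC2 counterpart. It read 5.02, 5.06, 4.97 and 5.24 in cKO cDC1 and 9.13, 9.63, 8.91, 9.41 and 9.68 in cKO cDC2, against 4.90, 5.08 and 5.04 in WT cDC1 and 5.49, 5.94 and 5.50 in WT cDC2. The cKO difference was -4.28 ± 0.20 (SE; 19.4-fold, uncertain in size because the cDC1 level was dim; limma adjusted p = 7.88e-13) and the difference of differences -3.64 ± 0.31 (limma adjusted p = 3.65e-07). Fn1, fibronectin of the extracellular matrix, read 5.62, 5.17, 4.86 and 4.81 in cKO cDC1 and 10.21, 9.68, 8.90, 9.31 and 8.88 in cKO cDC2, with WT cDC2 at 6.21, 6.90 and 5.92. Its cKO difference was -4.28 ± 0.34, its WT difference -1.01 ± 0.42 and the difference of differences -3.27 ± 0.54 (limma adjusted p = 0.00334; 0.067 without the 3 WT arrays of replicate 1). Il2rb, the shared beta chain of the IL-2 and IL-15 receptors, read 5.48 to 5.74 in cKO cDC1 and 7.93 to 9.30 in cKO cDC2. The Il2rb difference was -3.06 ± 0.28 in cKO and -0.94 ± 0.34 in WT (difference of differences -2.12 ± 0.44; limma adjusted p = 0.0284), a call lost after median centring (limma adjusted p = 0.146) and in most fits without 1 array. Dapk1, a death-associated kinase, differed by -1.70 ± 0.24 in cKO and 0.61 ± 0.29 in WT (difference of differences limma adjusted p = 0.00334). Blnk, the B cell linker adaptor, differed by -1.94 ± 0.22 and -0.13 ± 0.27 (difference of differences limma adjusted p = 0.0173).

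**Figure D3:**
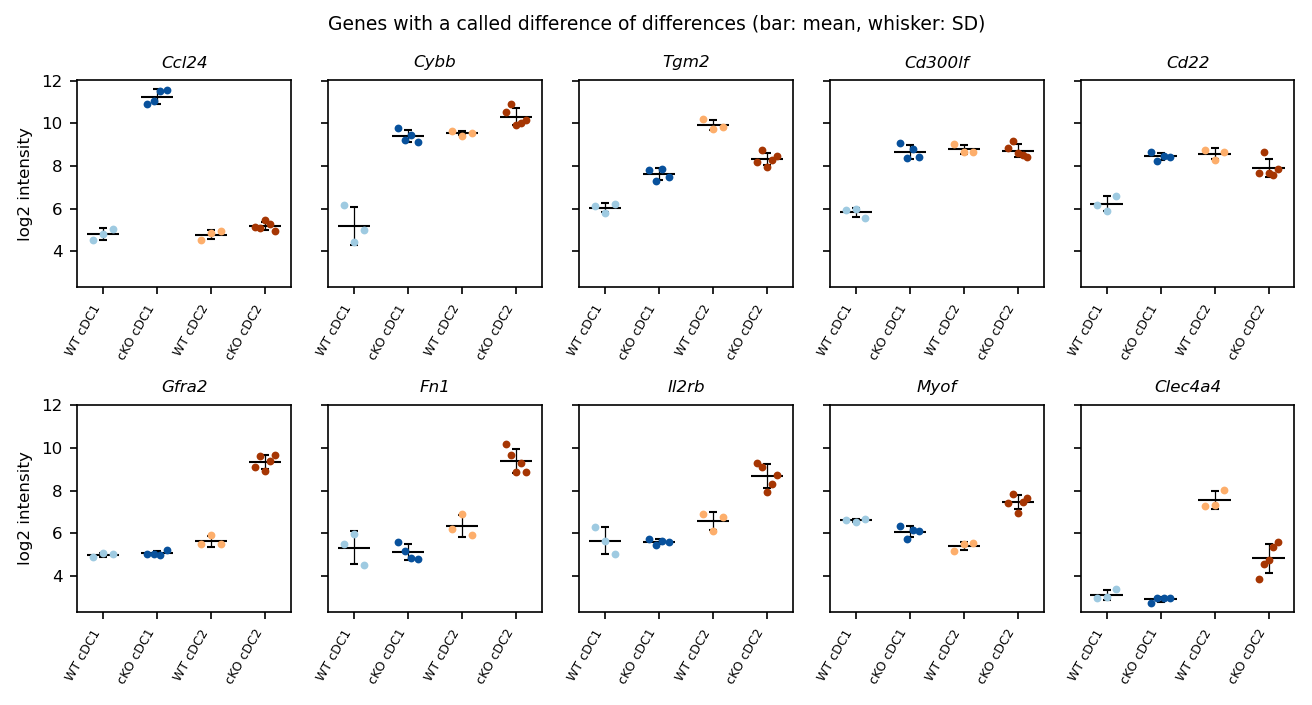
Log2 intensity (vertical axis) of 10 genes with a called difference of differences on each conventional dendritic cell array (points), by group (horizontal axis), with the mean (bar) and SD (whisker). Ccl24 stands at 10.89 to 11.56 on the 4 cKO cDC1 arrays alone, Gfra2 and Fn1 stand high on the 5 cKO cDC2 arrays, and Cybb and Cd300lf differ by -0.91 and -0.05 between the cKO subsets.

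The counts of the lists that follow stand against 4% of all genes tested called higher in cKO cDC1 and 4.95% in cKO cDC2. By receptor family, C-type lectins, Siglecs and Fc receptors lay mostly toward cDC2. Of 42 tested, 6 were higher in cKO cDC1 and 23 in cKO cDC2, with a median of -1.0 against 0.04 over all genes, and 7 had a called difference of differences. In WT, 4 and 19 were called. The list shares members with both identity lists. Mgl2, the galactose lectin paired with Clec10a, differed by -3.60 ± 0.38 in cKO and -1.46 ± 0.46 in WT (difference of differences limma adjusted p = 0.237), and probes may not tell such close paralogs apart.

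Of 22 Toll-like receptors and partners, 2 were higher in cKO cDC1 (Tlr3 and Tlr12) and 5 in cKO cDC2. Tlr12, a sensor of parasite profilin, differed by 2.58 ± 0.24 in cKO and 1.97 ± 0.29 in WT. Tlr1, which pairs with TLR2 to sense lipopeptides, differed by -2.52 ± 0.25 and -3.29 ± 0.30. Of 19 receptors for chemokines and guiding lipids, 3 were higher in cKO cDC1 and 7 in cKO cDC2, against 3 and 3 in WT, with no called difference of differences. Cx3cr1, the fractalkine receptor, differed by -3.11 ± 0.31 in cKO and -1.73 ± 0.37 in WT. Ccr6, the receptor for CCL20, differed by -1.90 ± 0.28 and -1.61 ± 0.34, and Cxcr6, the receptor for CXCL16, by -2.71 ± 0.28 and -1.10 ± 0.34. On the cDC1 side stood Cxcr3, the receptor for interferon-induced chemokines, at 2.54 ± 0.27 and 2.94 ± 0.33.

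Among 31 cytokines and chemokines, 6 were higher in cKO cDC1 and 4 in cKO cDC2, and 2 had a called difference of differences (Ccl24 and Il12b). Cxcl9, a ligand of CXCR3, differed by 3.28 ± 0.36 in cKO and 3.65 ± 0.43 in WT. Tnfsf9, the ligand of 4-1BB, differed by -2.89 ± 0.58 and -2.14 ± 0.70, and Ltb, a subunit of membrane lymphotoxin, by -2.38 ± 0.42 and -2.52 ± 0.51. Of 24 costimulatory and coinhibitory molecules, 3 were higher in cKO cDC1 (4% of all genes tested were) and 4 in cKO cDC2 (4.95%). Tnfsf4, the OX40 ligand, differed by -2.20 ± 0.25 in cKO and -0.49 ± 0.30 in WT (difference of differences limma adjusted p = 0.0692). Btla, an inhibitory receptor, differed by 1.90 ± 0.26 and 2.41 ± 0.32.

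Antigen presentation was read by a list for each MHC class. Of 21 genes of MHC class I presentation and cross-presentation, 7 were higher in cKO cDC1 and 0 in cKO cDC2, with a median of 0.71 in cKO and 0.76 in WT, where 3 and 1 were called. They included Psmb9, a subunit of the immunoproteasome (1.51 ± 0.30), Tap2, of the peptide transporter (1.19 ± 0.26), and Wdfy4, needed for cross-presentation (1.36 ± 0.23; not called when read by its most variable probe set, limma adjusted p = 0.0951). The list also holds Cybb, whose difference lies the other way. Of 19 genes of MHC class II presentation, limma called 0 in cKO (4 at an unadjusted p below 0.05, against 2082 of all 12157 genes tested). The largest difference was 0.80 in size, while 2 were called toward cDC2 in WT. The lists were not tested against each other.

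Of 26 interferon-stimulated genes, 7 were higher in cKO cDC2 and 1 in cKO cDC1 (Mx1, 0.88 ± 0.26), with a median of -0.22 in cKO and -0.67 in WT. Rtp4, a receptor transporter protein induced by interferon, differed by -3.05 ± 0.35 in cKO and -3.67 ± 0.43 in WT. Oas2, a sensor of double-stranded RNA, differed by -2.22 ± 0.23 and -2.21 ± 0.28. Of 26 genes of the Notch pathway, 1 was higher in cKO cDC1 (Notch4) and 2 in cKO cDC2 (Maml3 and Dtx1), a share near the 8.95% over all genes. Each of these calls was lost on leaving out a single array, with limma adjusted p = 0.135 for Notch4 without cKO cDC1 replicate 3, 0.074 for Maml3 and 0.0894 for Dtx1 without cKO cDC1 replicate 2. Of 16 integrin chains, 3 were higher in cKO cDC1 (Itgae, Itga1 and Itga3) and 2 in cKO cDC2 (Itgam and Itga5), with a median of 0.05. Of 25 genes of the phagocyte oxidase, S100, annexin and actin capping families, 2 were higher in cKO cDC1 and 4 in cKO cDC2, S100a4, S100a6, Anxa2 and Anxa3.

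**Figure D4:**
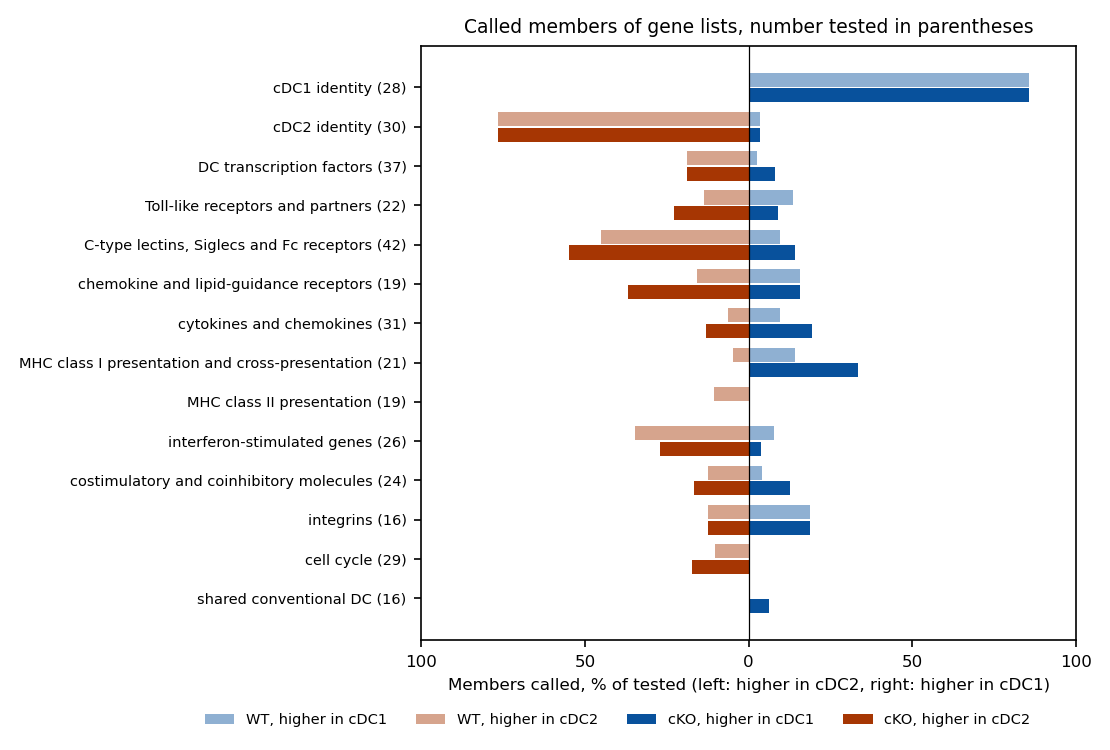
Percentage of tested members called by limma at an adjusted p below 0.05 (horizontal axis, higher in cDC2 to the left and higher in cDC1 to the right) for 14 gene lists (vertical axis, number tested in parentheses), in WT (pale bars) and cKO (dark bars). The cDC1 identity list shows 24 of 28 members on the cDC1 side in both genotypes and the cDC2 identity list 23 of 30 on the cDC2 side, while MHC class II presentation shows 0 of 19 in cKO.

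Genes described in B and T cells as repressed by BCL6 lay toward cDC2 in both genotypes. Of 30 tested, 14 were higher in cKO cDC2 and 0 in cKO cDC1, with a median of -0.71 in cKO and -0.59 in WT, where 11 and 0 were called. No member had a called difference of differences. The list shares Irf4, Prdm1, Tbx21 and Ccr6 with other lists. Cd69, an early activation receptor, differed by -2.15 ± 0.39 in cKO and -2.44 ± 0.47 in WT. Gata3, a factor of helper T cells, differed by -2.07 ± 0.25 and -0.63 ± 0.31 (difference of differences limma adjusted p = 0.229). Of 13 genes of the BCL2 family limma called 0 in cKO (2 at an unadjusted p below 0.05, against 2082 of all 12157 genes tested). Of 29 cell cycle genes, 5 were higher in cKO cDC2 (4.95% of all genes tested were) and 0 in cKO cDC1 (4%). The median was -0.60 in cKO and -0.55 in WT. Ccne1, which encodes cyclin E1, differed by -2.04 ± 0.35 and -1.62 ± 0.42. Among the cKO cDC2 arrays Ccne1 was highest on array 4 (9.48) and lowest on array 2 (7.76), as was the erythroid gene Car1 (12.99 and 11.63), and the part of erythroid cells in the cell cycle values was not tested. The calls of Rrm2 and Ccnd2 were lost without cKO cDC1 replicate 1 (limma adjusted p = 0.106 and 0.0737). Of 19 immediate-early and heat shock genes, limma called 0 in cKO (2 at an unadjusted p below 0.05).

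Markers of other lineages moved with some of these differences. In bulk samples, more cells of a type and more RNA per cell cannot be told apart. The summed intensity of the 5 tested erythroid and platelet markers (of 11 listed) was 152 to 393 on the cKO cDC1 arrays and 273 to 1190 on the cKO cDC2 arrays, and 165 to 342 and 252 to 735 in WT. Slc4a1, the band 3 anion exchanger of red cells, and Klf1, the erythroid factor, were higher in cKO cDC2, by 2.26 ± 0.59 and 2.19 ± 0.49. The Slc4a1 call was lost without cKO cDC1 replicate 1 or replicate 2 (limma adjusted p = 0.074 and 0.0593). Of the 5 markers, 2 were dim in cKO cDC1 and 0 in cKO cDC2.

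Car1, a carbonic anhydrase of red cells, had the largest difference of all genes tested. It read 6.38, 5.20, 6.18 and 5.52 in cKO cDC1 and 12.52, 11.63, 11.92, 12.99 and 12.50 in cKO cDC2, a difference of -6.49 ± 0.72 (SE; 90.1-fold; limma adjusted p = 7.42e-07) against -6.10 ± 0.87 in WT. Car2 read 4.81 to 5.29 against 7.94 to 9.53. Rhag, the Rh-associated glycoprotein, read 2.87 to 4.36 against 6.64 to 8.65, and Cldn13, a claudin, read 4.18 to 6.75 against 7.54 to 10.90. None of these 4 overlapped between the cKO subsets, which the rule that named them required (11.2% of all genes tested did not overlap). Their differences of differences were all within 0.75 log2 and not called. The part that cells of the erythroid lineage had in these 4 differences was not tested.

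**Figure D5:**
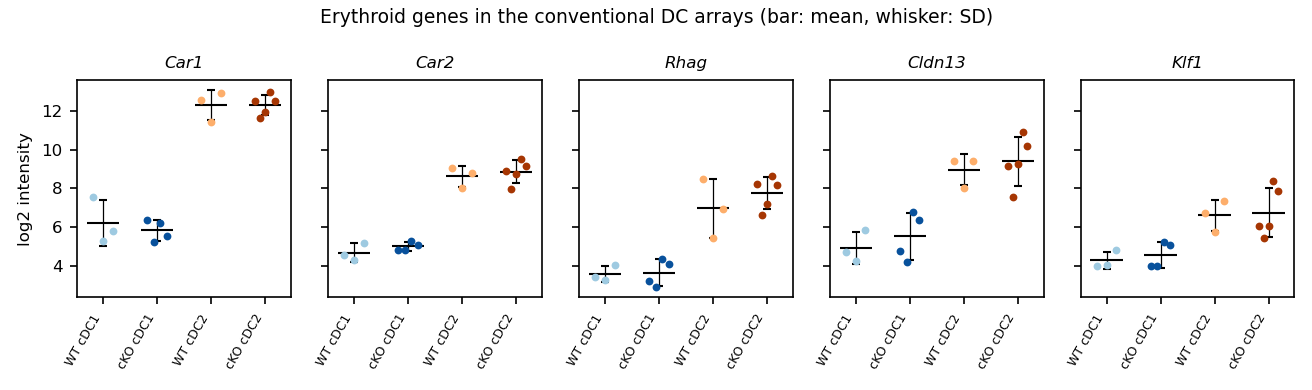
Log2 intensity (vertical axis) of 5 erythroid genes on each conventional dendritic cell array (points), by group (horizontal axis), with the mean (bar) and SD (whisker). Both cDC2 groups stand above both cDC1 groups, for Car1 at 11.43 to 12.99 against 5.20 to 7.56.

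Other marker lists were read in the same way. Of all genes tested, 8.95% were called in cKO (4% higher in cDC1, 4.95% higher in cDC2). The T cell list and the monocyte and neutrophil list were near that share. Of 13 red pulp macrophage markers, 5 were higher in cKO cDC2 and 1 in cKO cDC1, and their summed intensity was 657 to 928 in cKO cDC1 and 890 to 1530 in cKO cDC2. Mertk, a receptor for dying cells, was -2.08 ± 0.31 in cKO and -0.03 ± 0.37 in WT (difference of differences limma adjusted p = 0.087). Adgre1, a surface antigen of mature macrophages, had medians of 6.58 in cKO cDC1 and 8.82 in cKO cDC2 with no overlap. Its WT medians were 5.31 in cDC1 and 8.80 in cDC2. Axl, a receptor related to Mertk, read 5.24 to 5.94 and 6.28 to 7.67 in cKO, and 5.11 to 5.72 and 5.91 to 6.30 in WT. The 1 marker on the other side was Timd4, at 6.87 to 7.70 in cKO cDC1 and 5.39 to 5.74 in cKO cDC2. Of the 13, 6 were dim in cKO cDC1 and 2 in cKO cDC2. Of 7 NK cell markers, 1 was higher in cKO cDC1 and 2 in cKO cDC2, with sums of 684 to 852 and 1100 to 1990. Of 9 T cell markers, 0 and 1 (Il7r, -2.62 ± 0.21) were called, with sums of 622 to 998 and 1290 to 1860. The sums of the NK and T cell lists did not overlap between the cKO subsets, while those of the other marker lists did. A linear sum follows its brightest members. Klrd1, an NK marker, read 6.72 to 7.73 in cKO cDC1 and 9.40 to 10.54 in cKO cDC2. Klrk1 lay the other way (8.18 to 8.83 and 7.47 to 7.97). Il7r read 6.01 to 6.79 and 8.79 to 9.32, and 8 T cell markers were not called. On the pDC arrays Klrd1 read 9.70 to 11.04 and Il7r 9.31 to 10.11. Of 11 B cell markers, 2 were higher in cKO cDC1 and 0 in cKO cDC2, with sums of 375 to 728 and 257 to 419. Of 14 pDC markers, 1 and 3 were called, with sums of 2300 to 4000 and 2460 to 4160, and of 12 monocyte and neutrophil markers 0 and 1, with sums of 4480 to 10400 and 3440 to 9500. The part of these cells in the subset differences was not tested.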

How the data were processed

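RNA of 23 sorted splenic dendritic cell samples was hybridised to Affymetrix Mouse Gene 1.0 ST arrays. Per the labels' protocols, spleen digestion used DNase I with collagenase B, followed by lysis of red cells, and biotinylated cDNA was made with the WT Pico kit. Per the submitters' processing notes, the authors used Affymetrix Expression Console with RMA, and the deposited intensity values (3.785 to 13980.744) are linear, so log2 was taken here. No version, slide or scan date is stated there.

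Of 28853 probe sets, 21789 named 1 gene, 1621 named several and 5443 were unnamed in the table used, and only the first were analysed. The filter asked for 3 or more arrays on which a probe set exceeded the array's median. Each gene was read by its brightest probe set on average, which left 12157 of 19938 genes. Two-sided tests used limma 3.58.1 in R 4.3.3 (lmFit and eBayes) on 6 group means over 23 arrays, with 17 residual degrees of freedom and Benjamini-Hochberg adjustment over all genes of a contrast. A call is an adjusted p below 0.05. The number of arrays limits the precision. No 2 of the 23 arrays were identical.

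Same-numbered arrays were checked for pairing by the correlation of their deviations from group means. In WT it was 0.65, 0.48 and 0.64, in cKO 0.60, -0.11, -0.30 and 0.52, so the numbers pair the WT subsets only. The cKO arrays also deviated together under unlike numbers (cDC1 array 1 with cDC2 array 2 at 0.61, 2 with 3 at 0.49, 4 with 5 at 0.55), and the array set was tried as a term. The array sets were parted at the widest gap between array medians.

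The rule for named genes took the 15 largest called differences each way with arrays that do not overlap, Bcl6, up to 4 called members of each of 26 lists, the 8 largest called differences of differences in each direction relative to WT, the 6 largest WT differences not called in cKO, and all members of the transcription factor and identity lists. Some genes were named outside this rule, among them Il12b, Ccr7, Flt3, Mx1, Itga3 and Cd300ld. Of the 6 largest WT differences not called in cKO, Dcn, Il1r2 and Mt2 are not described above. The comparison, lists and tests were chosen with earlier results of these data known. Sequences came from RefSeq (GRCm38.p6), and a missing entry was not sought elsewhere. Alternatives covered the arrays in the fit, blocks, normalization, the filter, the pseudocount, array weights and single arrays. The fitting code was tested on simulated data.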

Additional observations from a re-analysis of the deposited data

Results flagged for a closer look

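The difference between cDC1 and cDC2 was itself called as different between cKO and WT (limma, adjusted p below 0.05) for 34 genes, and the 16 named are given here as the cKO difference minus the WT difference in log2. Where the difference was smaller in size in cKO than in WT, the values were 3.45 for Cybb, 3.16 for Tgm2, 2.92 for Cd300lf and 2.89 for Cd22. In the same class they were 2.59 for Pltp, 2.52 for Slc12a2, 2.52 for B4galt6 and 2.52 for Clec4a4. Where the difference was larger in size in cKO, the values were 6.04 for Ccl24, -3.64 for Gfra2, -3.27 for Fn1 and -2.59 for Myof. In this class they were also 2.33 for 1700006J14Rik, -2.31 for Dapk1, -2.12 for Il2rb and 2.06 for Gbp2b.

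Single arrays stood far from the others of their group for 11 of 216 groups of values (5.09%), and chance gives about 1 in 20. In cKO cDC2 replicate 3, Clec10a read 7.03 (others 8.36 to 8.70), Cx3cr1 7.57 (others 8.67 to 8.90) and Gata3 6.04 (others 6.47 to 6.62). Rtp4 read 8.49 in cKO cDC2 replicate 1 (others 9.73 to 10.01) and 6.18 in cKO cDC1 replicate 2 (others 6.70 to 6.74). Irf4 read 4.36 and Clec4a4 2.75 in cKO cDC1 replicate 1 (others 5.66 to 5.77 and 2.98 to 2.99). Rgl1 read 5.23 in cKO cDC1 replicate 4 (others 4.53 to 4.56) and Spib 4.66 in cKO cDC1 replicate 3 (others 4.32 to 4.33). Il7r read 9.32 in cKO cDC2 replicate 5 (others 8.79 to 8.94) and Cd22 8.68 in cKO cDC2 replicate 2 (others 7.60 to 7.88).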

How the results depend on the processing

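Single genes were followed through the alternatives for 108 of the named genes. The remaining members of the transcription factor and identity lists, such as Csf1r, Sirpa and Cd8a, were not followed. Of 98 followed genes with a called cKO difference, 14 lost the call under at least 1 alternative. Of 10 without one, 4 gained it (Cybb, Il1r2, Cd22 and Cd33). No called difference of a followed gene turned its sign. Of the 16 followed differences of differences, 10 kept their call, while Pltp, Il2rb, Slc12a2, Fn1, 1700006J14Rik and Gbp2b lost it in at least 1. Other called differences of differences, such as those of Cd209a, Tlr7, Dtx1, Il12b and Blnk, were not followed gene by gene. The counts moved more: with an array set as a term, 1751 genes were called in cKO, 1291 in WT, 923 in both the same way and 95 for the difference of differences. With array weights 2155 (1190 of them higher in cDC1) and 72 were called, in cKO and for the difference of differences. A term for 3 sets from clustering of the arrays, chosen after seeing the data, gave 2471, 1902, 1350 and 144, and such a term lowers the residual by construction. Without the 3 WT arrays of replicate 1, which leaves 2 WT arrays a group, 430 were called in WT, 348 in both and 17 for the difference of differences. For the other moves the cause was not tested.

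With the replicate block, whose numbers pair the WT arrays and not the cKO arrays, 1879 genes were called in cKO (1096 higher in cDC1), 1223 in WT and 877 in both the same way. Leaving out each of the 15 conventional arrays in turn gave 865 to 1091 calls in cKO, 575 to 747 in WT, 436 to 523 in both and 22 to 37 for the difference of differences, with 22 without WT cDC1 replicate 2 and without WT cDC2 replicate 2. The difference of differences has no fit on the arrays of 1 contrast alone. Dim levels limit folds, and 4 to 5 arrays a group limit what can be called.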
